A study of Homo sapiens with 4 samples.

Results

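EZH2 and the subunits of the Polycomb repressive complex PRC2 were followed in cells labelled as the established human breast cancer line MDA-MB-468, with and without mH2A1.2. The set is every probe annotated to 10 genes, EZH2, EZH1, EED, SUZ12, RBBP4, RBBP7, JARID2, AEBP2, MTF2 and PHF19, with a detection p-value under 0.05 on at least 2 of 4 arrays. A detection p-value is the share of an array's negative control beads that are at least as bright as the probe. Of 16 annotated probes 15 were kept, standing for 9 of the 10 genes, among 19650 kept probes and 11265 genes in all. All 15 were detected on all 4 arrays, so none entered the set through the brighter group alone. The EZH1 probe was the one left out.

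One group carried a knockout of mH2A1.2, a splice form of the histone variant made by MACROH2A1, and was set against wild type cells of the same line, with 2 samples in each group. The labels name neither an agent nor a passage, do not say how the knockout was made or whether it was 1 clone, and are silent on whether a replicate is a culture of its own. The spread that p-values rest on here may thus be technical. Total RNA was hybridised to 4 Illumina bead arrays on 1 chip. The series title links mH2A1.2 in breast cancer cells to H3K27me3 made by EZH2 and to osteoclasts, the cells that resorb bone, and the comparison here asks how the RNA of the enzyme and its partners differed in the knockout.

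PRC2 places methyl groups on lysine K27 of histone H3, a mark of silenced genes. EZH2, or its relative EZH1 in cells that divide little, is the methyltransferase, and it works only when bound to EED and SUZ12, with RBBP4 or RBBP7 as the histone-binding arm. Accessory subunits define alternative forms of the complex: MTF2 and PHF19, of the Polycomb-like family, in one, and JARID2 and AEBP2 in the other. EZH2 is a target of E2F factors, is more abundant in proliferating cells, and is often high in breast cancers that lack hormone receptors.

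The promoters of 3 members are shown because their probes differed in opposite directions: EZH2 and PHF19, most of whose probes were lower in the knockout, and JARID2, whose probe was higher. Each runs 5′ to 3′ on the gene's strand, from 250 bases before to 50 bases after an annotated start, taken from RefSeq on GRCh38.p14, where all 10 genes matched by symbol. Capitals mark matches on either strand to TTTNNCGC, with any base at N, and to CCAAT, the box bound by NF-Y. The first is a loose form of E2F sites, so a match need not be one and a variant site can be missed. These windows were picked from 2 annotated for each gene after the matches were seen. They are the first EZH2 window at chr7:148884242-148884541 on the minus strand, the second PHF19 window at chr9:120877139-120877438 on the minus strand, and the first JARID2 window at chr6:15245819-15246118 on the plus strand.
EZH2: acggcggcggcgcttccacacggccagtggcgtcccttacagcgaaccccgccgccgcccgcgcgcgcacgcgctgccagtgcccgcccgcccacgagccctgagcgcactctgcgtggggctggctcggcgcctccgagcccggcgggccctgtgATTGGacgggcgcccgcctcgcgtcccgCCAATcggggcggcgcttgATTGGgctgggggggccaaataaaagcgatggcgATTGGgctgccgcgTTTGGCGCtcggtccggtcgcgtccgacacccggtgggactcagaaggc
PHF19: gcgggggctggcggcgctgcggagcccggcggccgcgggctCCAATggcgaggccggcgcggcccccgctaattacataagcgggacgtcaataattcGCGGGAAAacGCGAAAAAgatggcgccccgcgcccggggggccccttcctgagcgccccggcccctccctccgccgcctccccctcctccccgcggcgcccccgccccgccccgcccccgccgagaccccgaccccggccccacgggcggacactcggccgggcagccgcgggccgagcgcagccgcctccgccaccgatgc
JARID2: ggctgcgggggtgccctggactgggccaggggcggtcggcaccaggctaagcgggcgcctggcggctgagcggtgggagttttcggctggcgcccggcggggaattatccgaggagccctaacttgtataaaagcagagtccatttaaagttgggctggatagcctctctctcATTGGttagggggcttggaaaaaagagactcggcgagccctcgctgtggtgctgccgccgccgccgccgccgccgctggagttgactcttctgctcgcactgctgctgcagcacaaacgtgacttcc

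The EZH2 window held 1 match to TTTNNCGC, on its own strand starting 1 base past the annotated start, and 4 CCAAT boxes. The PHF19 window held 2 matches to TTTNNCGC and 1 CCAAT box, and the JARID2 window held 0 and 1. The other EZH2 window held neither motif, the other PHF19 window held 0 and 1, and the other JARID2 window held neither, so the matches of a gene depend on which start is taken. Over all 15 windows of the 10 genes, TTTNNCGC was present in 7 windows, 1 for each of 7 genes, against 6.89% of 35116 RefSeq promoter windows of the same length. The 7 are EZH2, EZH1, SUZ12, RBBP7, AEBP2, MTF2 and PHF19. EED, RBBP4 and JARID2 lacked it, though EED and most RBBP4 probes were lower in the knockout and the JARID2 probe was higher. A link between motif and direction was not tested. CCAAT was present in 10 of the 15, against 34.6% of all windows. Both RBBP4 windows overlap and share a CCAAT box. The motifs share no base where they match here. A match describes letters and is not a measured binding site. Absence from a window says nothing of the factor, and binding was not measured.

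Before the results, the arrays and the knocked-out gene set the limits. Between 18648 and 19716 of 47230 probes were detected on an array. The knockout arrays were less alike than the wild type arrays, with 1686 kept probes over 2-fold apart between knockout replicates 1 and 2 and 250 between the wild type replicates. Knockout replicate 1 was nearer to the wild type arrays, with 946 and 1157 probes over 2-fold apart, than to knockout replicate 2, which had 3311 and 2431 against wild type. In 147 rows of the signal table, none of them a PRC2 probe, the deposited detection p-values contradict the signals and were replaced by values read from the signal, which alters the background correction of every probe. The brightest MACROH2A1 probe, ILMN_2373495, had log2 signals of 12.32 and 12.12 in the knockout, against 13.04 and 12.96 in wild type, a difference of -0.78 ± 0.21 (standard error). A further probe differed by -1.02, another by 0.76, and the remaining one was not detected. Which splice form each probe reads is not stated in the sources used here. Of markers of the labelled epithelial cell type EPCAM, KRT8 and KRT18 were detected and CDH1 was not. Of basal breast markers EGFR was detected, as was ITGB4 except on wild type replicate 1, while KRT5, KRT14, CDH3 and TRIM29 were not. Of hormone receptor markers ERBB2 was detected on 4 arrays, ESR1 on 2, both of the knockout, GATA3 on 1, and PGR and FOXA1 on none. The name of the line rests on the labels, and whether these markers match it was not tested.

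Values below are log2 normalized signals, differences are knockout minus wild type with the moderated standard error of limma, and folds are on the same normalized scale, which understates the fold of a dim probe. Over all kept probes limma called 0 (0%) after Benjamini-Hochberg adjustment at 0.05, and no PRC2 probe was called. At an unadjusted p under 0.05 it counted 3349 of 19650 probes, or 17%, with 8.3% lower and 8.75% higher in the knockout. Of the 15 PRC2 probes 3 were past that level, 2 lower and 1 higher. That number rises without knockout replicate 1 and falls without either wild type array, as does the share of all kept probes past that level. Differences were negative at 12 of the 15 probes, against 52.4% of all kept probes, and positive at 3. The groups did not overlap at 11 of the 15 probes, lower in the knockout at 9 and higher at 2, against 50% of all kept probes, 26.2% lower and 23.7% higher.

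The median difference was -0.43 over the 15 probes and -0.03 over all kept probes. Over the 15 probes, of which EZH2, RBBP4 and PHF19 hold 3 each, knockout replicate 2 had a median difference from the wild type mean of -0.49, and knockout replicate 1 one of -0.21. When each of the 9 genes counted by 1 probe the order turned, with -0.22 on knockout replicate 2 and -0.29 on the other knockout array. Without knockout replicate 2 the median over the probes is -0.21, closer to 0 by more than 1.5 times. The plot of PRC2 probes by array shows every value behind these counts.

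**Figure D1:**
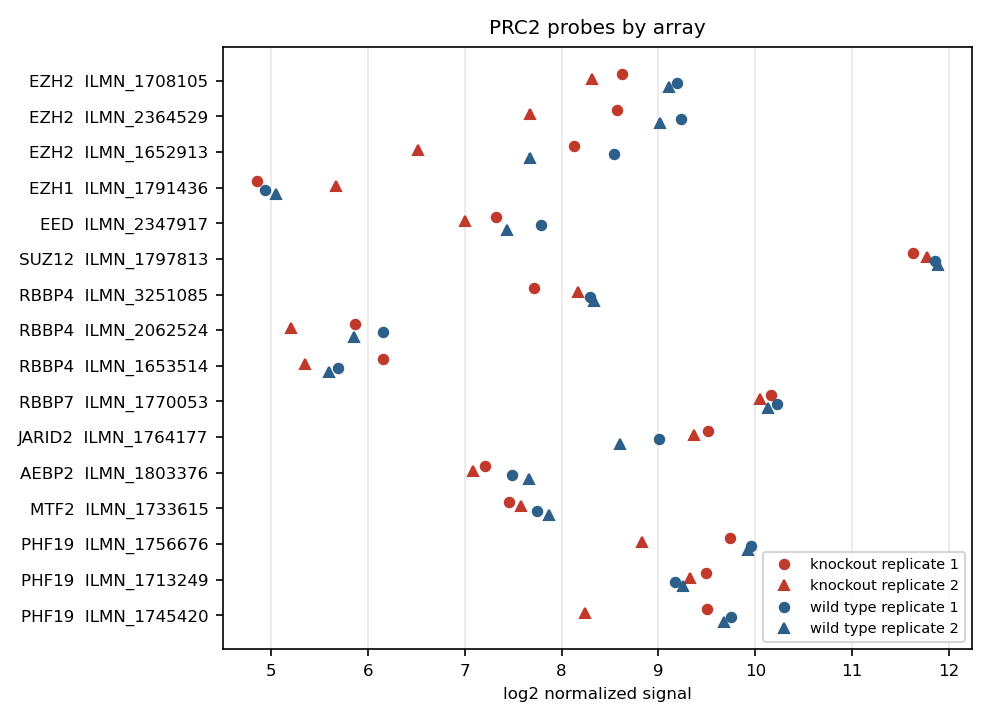
Log2 normalized signal (horizontal axis) of each of the 16 PRC2 probes (rows) on each array, with knockout arrays in red, wild type arrays in blue, circles for replicate 1 and triangles for replicate 2. Both knockout points lie left of both wild type points at 9 kept probes, and right of them at the JARID2 probe and at PHF19 ILMN_1713249; the EZH1 probe, near 5, is the one not kept.

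EZH2, the catalytic subunit, had the lower mean in the knockout at all 3 of its probes, and the groups were apart at 2 of them. At the brightest probe, ILMN_1708105, unnormalized signals were 519 and 415 on the knockout arrays, against 712 and 712 on the wild type arrays. After normalization its log2 signals were 8.63 and 8.32 in the knockout and 9.19 and 9.11 in wild type, with means of 8.47 ± 0.22 and 9.15 ± 0.06 (SD, n = 2 each). Both knockout values lay below both wild type values, by more than the gap between replicates of either group. The difference was -0.68 ± 0.22, or 1.60-fold lower, with a 95% interval of -1.23 to -0.13 (limma, Benjamini-Hochberg adjusted p = 0.238). Among kept probes 7.86% had a lower difference. The probe was past the unadjusted level, but is not without knockout replicate 2, where it is at -0.52, nor without either wild type array.

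At the other EZH2 probe annotated to the same transcript, ILMN_2364529, log2 signals were 8.57 and 7.67 in the knockout, against 9.23 and 9.02 in wild type. Both knockout values were again below both wild type values, but knockout replicate 2 lay 0.90 below knockout replicate 1. The difference was -1.0 ± 0.34, or 2.0-fold lower (limma, Benjamini-Hochberg adjusted p = 0.250), and it is -0.55 without knockout replicate 2. Without that array, or without wild type replicate 1, it is no longer past the unadjusted level. The probe annotated to a different EZH2 transcript, ILMN_1652913, had log2 signals of 8.13 and 6.52 in the knockout, against 8.54 and 7.68 in wild type. There the groups overlapped, because knockout replicate 1 lay between the wild type arrays. Its difference of -0.79 ± 0.58 had a 95% interval of -2.25 to 0.68 (limma, Benjamini-Hochberg adjusted p = 0.540), and without knockout replicate 2 it is 0.018. In whole-culture RNA, fewer proliferating cells and less EZH2 RNA per cell cannot be told apart.

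EZH1, the other methyltransferase, was measured by 1 probe, ILMN_1791436, near background. Its unnormalized signals were 146 and 167 in the knockout, against 146 and 152 in wild type. It was detected on knockout replicate 2 only, with detection p-values of 0.161 and 0 in the knockout and 0.135 and 0.0753 in wild type. No difference is given, since 3 of its 4 values were not above background.

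Among the core subunits that hold the enzyme together, EED and SUZ12 each had both knockout values below both wild type values, by less than 1.5-fold. EED, which reads H3K27me3 and stimulates the enzyme, had log2 signals of 7.33 and 7.01 in the knockout, against 7.79 and 7.43 in wild type. The gap between groups was small beside the spread within them, and the difference was -0.44 ± 0.24, or 1.36-fold lower (limma, Benjamini-Hochberg adjusted p = 0.411). It is -0.27 without wild type replicate 1 and -0.29 without knockout replicate 2. SUZ12, the scaffold of the complex, had 11.63 and 11.77 in the knockout, against 11.86 and 11.89 in wild type. Its difference was -0.17 ± 0.20, with a 95% interval of -0.68 to 0.33 (limma, Benjamini-Hochberg adjusted p = 0.716), and it is -0.10 without knockout replicate 1.

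RBBP4 and RBBP7 are closely related histone-binding proteins shared with other chromatin complexes. The brightest RBBP4 probe, ILMN_3251085, had log2 signals of 7.71 and 8.17 in the knockout, against 8.30 and 8.33 in wild type, a difference of -0.37 ± 0.24 (limma, Benjamini-Hochberg adjusted p = 0.475). Knockout replicate 1 was farther from wild type than knockout replicate 2 at this probe, and the difference is -0.15 without replicate 1 and -0.60 without replicate 2. Its 2 dimmer probes overlapped between groups. ILMN_2062524 had 5.86 and 5.20 in the knockout, against 6.15 and 5.85 in wild type, and ILMN_1653514 had 6.16 and 5.35, against 5.69 and 5.60. Their differences were -0.47 ± 0.29 and 0.11 ± 0.32, so the RBBP4 probes do not share a direction. Without knockout replicate 2 the first is -0.14, and without knockout replicate 1 the second is -0.30.

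RBBP7 had the difference nearest to 0 of the 15 probes, with log2 signals of 10.16 and 10.05 in the knockout, against 10.23 and 10.13 in wild type. The groups overlapped, and the difference of -0.07 ± 0.20 had a 95% interval of -0.58 to 0.43 (limma, Benjamini-Hochberg adjusted p = 0.899). The gene table lists 7 pseudogenes of RBBP4, 2 of SUZ12 and 1 of EED. Probe sequences were not used here, so whether these probes also read such copies was not tested.

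**Figure D2:**
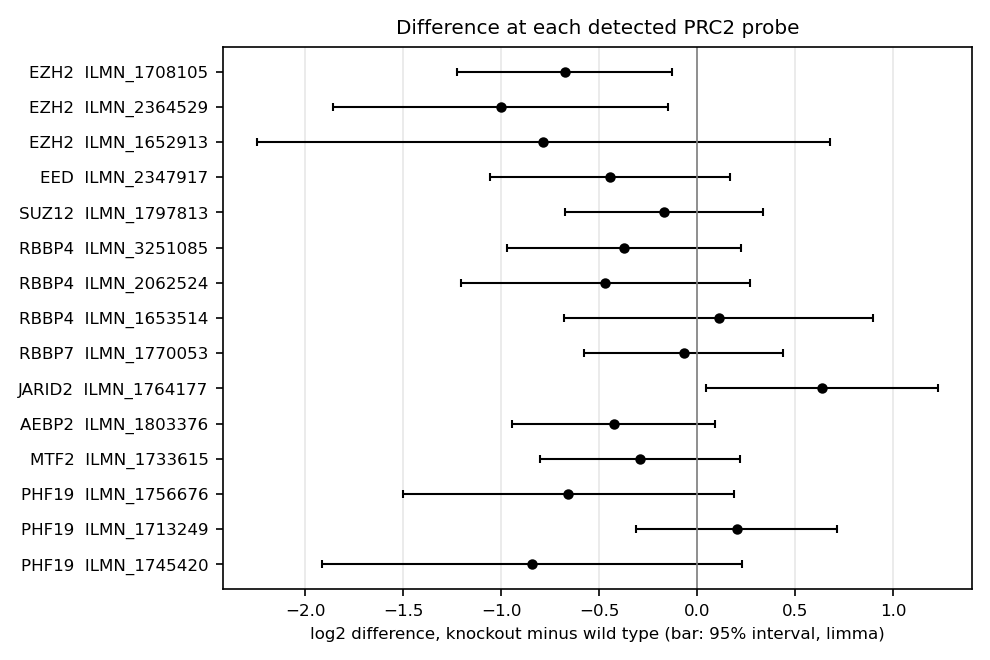
Log2 difference, knockout minus wild type (horizontal axis), at each of the 15 detected PRC2 probes (rows), with points for limma's estimate from 2 knockout and 2 wild type arrays and bars for its 95% interval. The intervals of 2 EZH2 probes lie below 0 and that of JARID2 lies above it, and the other 12 include 0.

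The accessory subunits did not share one direction. JARID2, a catalytically inactive Jumonji protein that brings PRC2 to chromatin and is itself methylated by it, was the one member higher in the knockout at the unadjusted level. Its log2 signals were 9.51 and 9.37 in the knockout, against 9.01 and 8.60 in wild type. Both knockout values were above both wild type values, and the wider spread was that of the wild type pair. The difference was 0.63 ± 0.24, or 1.55-fold higher, with a 95% interval of 0.04 to 1.23 (limma, Benjamini-Hochberg adjusted p = 0.274). Of all kept probes 90.3% had a lower difference. With arrays scaled to equal medians in place of quantiles JARID2 was at 0.57 and no longer past the unadjusted level. That level is also lost without knockout replicate 1, at 0.56. It is lost too without wild type replicate 1, at 0.84, and without wild type replicate 2, at 0.43.

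AEBP2, a zinc finger protein that joins PRC2 together with JARID2, lay on the other side. It had log2 signals of 7.21 and 7.09 in the knockout, against 7.49 and 7.66 in wild type. The groups did not overlap, and the difference was -0.43 ± 0.21, or 1.34-fold lower (limma, Benjamini-Hochberg adjusted p = 0.359). MTF2, a Polycomb-like protein that binds unmethylated CpG DNA, had 7.45 and 7.58 in the knockout, against 7.75 and 7.87 in wild type. Its difference was -0.29 ± 0.20 (limma, Benjamini-Hochberg adjusted p = 0.515), again with no overlap.

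PHF19, a Polycomb-like protein whose Tudor domain reads methylated H3K36, gave opposite signs by probe. ILMN_1756676 had log2 signals of 9.74 and 8.83 in the knockout, against 9.96 and 9.92 in wild type. ILMN_1745420, annotated to the same transcript, had 9.50 and 8.24 in the knockout, against 9.75 and 9.68 in wild type. At both, knockout replicate 2 was far below the other 3 arrays while knockout replicate 1 was close to wild type. Their differences were -0.66 ± 0.34 and -0.84 ± 0.43, and without knockout replicate 2 they are -0.20 and -0.21.

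The PHF19 probe annotated to a different transcript, ILMN_1713249, had log2 signals of 9.49 and 9.33 in the knockout, against 9.17 and 9.25 in wild type. Both knockout values were above both wild type values, with a difference of 0.20 ± 0.20 (limma, Benjamini-Hochberg adjusted p = 0.665).

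**Figure D3:**
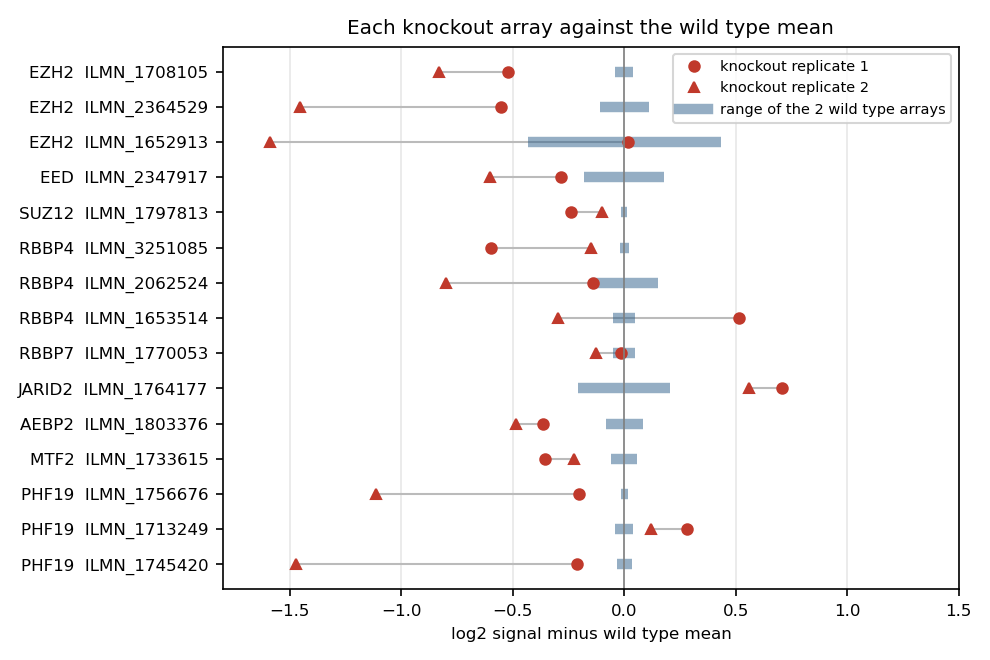
Log2 signal of knockout replicate 1 (circles) and replicate 2 (triangles) minus the wild type mean (horizontal axis) at each detected PRC2 probe (rows), with blue bars for the range of the 2 wild type arrays. Replicate 2 is the farther from wild type at the EZH2, EED, RBBP7 and AEBP2 probes, at RBBP4 ILMN_2062524 and at 2 PHF19 probes, reaching -1.59, and replicate 1 at SUZ12, JARID2, MTF2, the other 2 RBBP4 probes and PHF19 ILMN_1713249.

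Related genes were described by the brightest kept probe of each gene. On that footing, 9.46% of 11265 genes were lower and 10.4% higher at an unadjusted p under 0.05, and 51.1% had a negative difference, with a median of -0.01. The 9 PRC2 genes had 8 negative differences, 1 lower and 1 higher at that level, and a median of -0.37. The groups were apart at 8 of them, lower at 7 and higher at 1, against 28.2% lower and 25.9% higher among all genes. No gene of any list was called after adjustment, where limma called 0% of all genes. The related lists below gave 12 genes past the unadjusted level, of 4, 21, 13, 16 and 8 measured in turn. These 12 were picked for passing it in these data, and most lose it without knockout replicate 2 or either wild type array. With the replicate number as a block 3 of the 12, TIMP2, SLIT2 and CDKN1C, are called after adjustment, as are 375 of all kept probes. More of the 12 are called without knockout replicate 1, as are many more of all kept probes.

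Further partners of PRC2 and the H3K27 demethylases gave 4 measured genes of 6, with a median of 0.01, 1 of them lower at the unadjusted level and none higher. EPOP, a subunit found with the Polycomb-like proteins, had log2 signals of 7.78 and 8.06 in the knockout, against 8.64 and 8.48 in wild type. It differed by -0.64 ± 0.22 (limma, Benjamini-Hochberg adjusted p = 0.255), close in size to EZH2, and the unadjusted level is lost without knockout replicate 1. KDM6A, which removes H3K27 methylation, differed by -0.24 ± 0.20, LCOR by 0.26 ± 0.25 and PHF1, the third Polycomb-like gene, by 0.53 ± 0.52, with knockout replicate 2 alone high at the PHF1 probe. Without it PHF1 differed by -0.28 and LCOR by 0.0045. EZHIP, an inhibitor of PRC2, was not detected on any array, and the demethylase KDM6B was detected on 1.

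The other complexes that hold RBBP4 or RBBP7 gave 21 measured genes of 24, 12 with a negative difference and a median of -0.34. LIN9, of the DREAM complex that represses cell cycle genes, had log2 signals of 7.23 and 6.57 in the knockout, against 7.71 and 7.80 in wild type, and differed by -0.86 ± 0.28 (limma, Benjamini-Hochberg adjusted p = 0.243). CHAF1A, of the chromatin assembly factor CAF-1, had 7.17 and 6.50 in the knockout, against 7.59 and 7.65 in wild type, and differed by -0.78 ± 0.28 (limma, Benjamini-Hochberg adjusted p = 0.265). These were the 2 of the 21 past the unadjusted level, both lower. Without knockout replicate 2 they are -0.52 and -0.45 and no longer past it. LIN37, also of DREAM, and MTA3, of the NuRD complex, differed by 0.55 ± 0.24 and 0.52 ± 0.23 and were not past it. LIN37 is at 0.21 with no background correction and MTA3 at 0.32 without knockout replicate 2.

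The E2F and RB family, which controls EZH2 transcription among many cell cycle genes, gave 13 measured genes of 13, 10 with a negative difference and a median of -0.42. At the unadjusted level 2 were lower and 1 was higher. E2F8, a repressor member, had log2 signals of 5.28 and 4.71 in the knockout, against 5.98 and 5.83 in wild type, a difference of -0.91 ± 0.27 (limma, Benjamini-Hochberg adjusted p = 0.220). It was not detected on knockout replicate 2, and its difference is -0.27 with the detection p-values as deposited and -0.28 with no background correction, where the unadjusted level is lost. TFDP1, the dimer partner of E2F proteins, had 10.25 and 9.40 in the knockout, against 10.85 and 10.64 in wild type, a difference of -0.92 ± 0.33 at a probe whose detection p-values were among those replaced (limma, Benjamini-Hochberg adjusted p = 0.263). Without knockout replicate 2 it is -0.50.

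RBL2, which encodes the p130 repressor found with E2F4 in resting cells, was the one higher. It had log2 signals of 8.03 and 9.21 in the knockout, against 7.05 and 7.46 in wild type, a difference of 1.36 ± 0.42 (limma, Benjamini-Hochberg adjusted p = 0.231). Without knockout replicate 2 it is 0.77. E2F4 itself differed by -0.45 ± 0.21 and was not past the level.

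Proliferation markers were all measured, 16 of 16, 14 with a negative difference and a median of -0.41. The median of the 9 PRC2 genes, counted in the same way, was -0.37. At the unadjusted level 2 were lower and none higher. The medians by array were -0.18 for knockout replicate 1 and -0.62 for knockout replicate 2, while those of the 9 PRC2 genes, also by brightest probe, were -0.29 and -0.22. BIRC5, or survivin, had unnormalized signals of 1160 and 664 in the knockout, against 1513 and 1622 in wild type, and a log2 difference of -0.82 ± 0.31 (limma, Benjamini-Hochberg adjusted p = 0.275). BUB1, a mitotic checkpoint kinase, had 9.88 and 9.70 in the knockout, against 10.23 and 10.54 in wild type, and differed by -0.60 ± 0.22 (limma, Benjamini-Hochberg adjusted p = 0.277). PLK1 and MCM2 differed by -0.62 ± 0.29 and -0.56 ± 0.26. Without knockout replicate 2 BIRC5 is at -0.43 and no longer past the unadjusted level, PLK1 at -0.26 and MCM2 at -0.28. The summed unnormalized signal of the 16 genes was 33736 and 21459 in the knockout, against 35617 and 37294 in wild type, so knockout replicate 2 was well below the other 3 arrays. The part of proliferation in the EZH2 difference was not tested.

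Summed unnormalized signals of markers of other cell types were low and also apart between groups. These sums include array background and probes not detected. The brightest PTPRC probe, detected on no array, read 139 and 133 in the knockout, against 136 and 142 in wild type. Leukocyte markers summed to 1275 and 1428 in the knockout, against 1102 and 1206 in wild type, with 3 of 7 genes that have a probe kept, and PTPRC, CD3D and CD3E not detected on any array. Fibroblast markers summed to 1279 and 1303 in the knockout, against 1181 and 1126 in wild type, with 2 of 8 kept and COL3A1, DCN, LUM, FAP and THY1 not detected. All 5 kept markers had a positive difference, and 3 were higher at the unadjusted level, CD14 by 1.38, COL1A1 by 0.94 and PDGFRB by 1.62. COL1A1 was detected on 2 arrays, both of the knockout, so it was kept only through the group where it is higher. CORO1A was not detected on wild type replicate 1. The counts of kept markers thus lean towards higher values by the filter itself. The part of other cells in the PRC2 differences was not tested.

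Genes known as repressed by EZH2 in cancer lines gave 8 measured of 14, 6 with a positive difference and a median of 0.57. The groups overlapped at 3 of these 8 genes. No overlap was seen at 4 that were higher and 1 that was lower, against 25.9% and 28.2% of all genes. At the unadjusted level 3 were higher and 1 was lower, and of the 3 higher VASH1 and CDKN1C lose that level with no background correction, on the authors' values and with the detection p-values as deposited. TIMP2, an inhibitor of matrix metalloproteinases, had log2 signals of 11.99 and 12.83 in the knockout, against 10.63 and 11.02 in wild type, a difference of 1.59 ± 0.34, or 3.01-fold higher (limma, Benjamini-Hochberg adjusted p = 0.171). With the mean of its probes TIMP2 is at 1.0. VASH1, an angiogenesis inhibitor, had 5.78 and 6.65 in the knockout, against 5.45 and 5.16 in wild type, a difference of 0.90 ± 0.34 (limma, Benjamini-Hochberg adjusted p = 0.276). VASH1 is at 0.30 with no background correction, 0.36 with the detection p-values as deposited and 0.47 without knockout replicate 2. Both knockout arrays were above both wild type arrays at each of these genes.

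CDKN1C, an inhibitor of cyclin-dependent kinases, had log2 signals of 6.06 and 7.56 in the knockout, against 4.82 and 5.85 in wild type. Its difference was 1.48 ± 0.58 (limma, Benjamini-Hochberg adjusted p = 0.288). It was not detected on wild type replicate 1, and the difference is 0.59 with no background correction, 0.80 with the detection p-values as deposited and 0.73 without knockout replicate 2. SLIT2, a guidance ligand that this list holds as an EZH2-repressed gene, was the one lower. It had 6.99 and 7.48 in the knockout, against 8.16 and 8.77 in wild type, a difference of -1.23 ± 0.31 (limma, Benjamini-Hochberg adjusted p = 0.189), which is -0.81 with no background correction. CDH1 and CDKN2A, both well-known repressed genes, were not detected on any array, and H3K27me3 was not measured in these files.

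**Figure D4:**
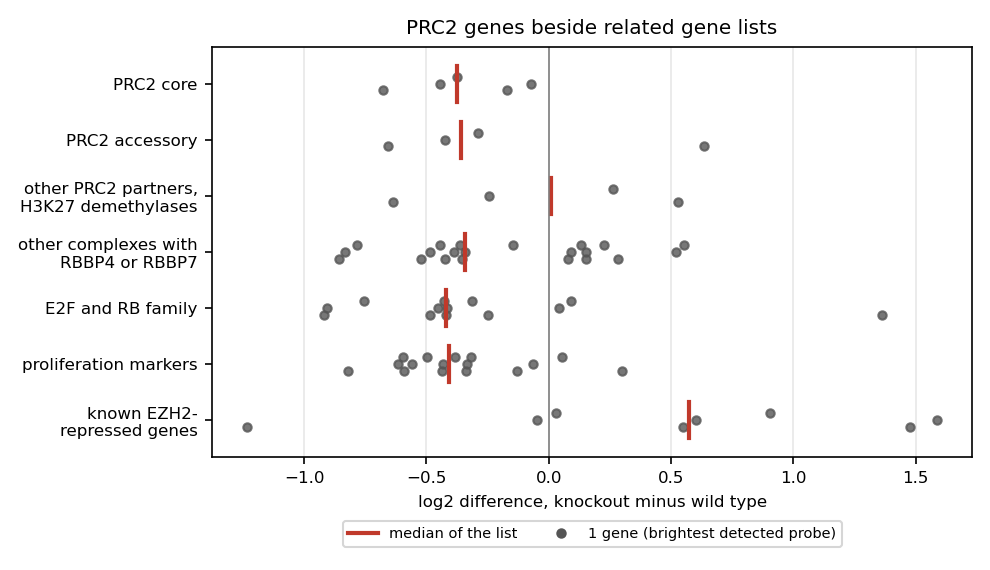
Log2 difference, knockout minus wild type (horizontal axis), of the brightest detected probe of each gene (grey points) in 7 lists (rows), with a red bar for the median of each list. Medians lie between -0.42 and -0.34 for the PRC2, RBBP4 and RBBP7 complex, E2F and proliferation lists, at 0.01 for the other PRC2 partners, and at 0.57 for the 8 measured genes known as repressed by EZH2.

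The pattern of EZH2 over the 4 arrays was compared with that of every other gene as the Euclidean distance between mean-centred log2 values. The 5 nearest of 11264 genes were ETS2, an ETS family transcription factor, THAP6, a THAP-domain protein, CCDC167, a coiled-coil protein, RSL1D1, a nucleolar protein, and ZNF350, a zinc finger repressor. Their distances were between 0.028 and 0.049, against a median of 0.82 over all genes. ETS2, the nearest, had log2 signals of 7.83 and 7.50 in the knockout, against 8.36 and 8.31 in wild type. With 4 arrays many genes come close by their group difference alone, so this is a description of shape.

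Among PRC2 members EED was nearest to EZH2, at 0.30, with 6.81% of genes nearer. AEBP2 followed at 0.33 and PHF19 at 0.43. SUZ12, RBBP4 and RBBP7 were at 0.60, 0.62 and 0.62, and MTF2 at 0.52. JARID2, with the opposite direction, was at 1.34, and 83.2% of genes were nearer than it.

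**Figure D5:**
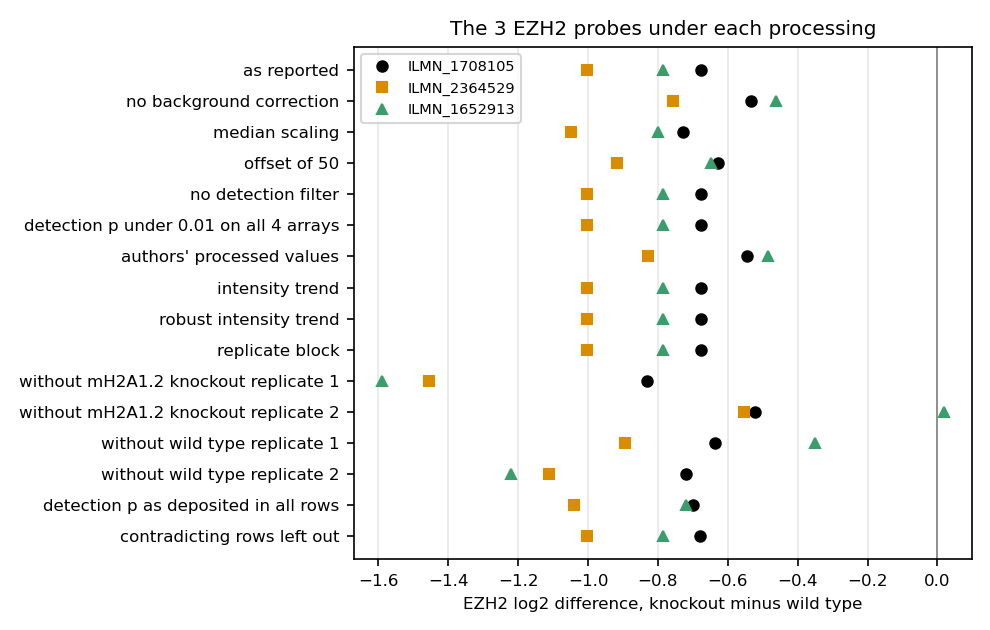
Log2 difference, knockout minus wild type (horizontal axis), of the 3 EZH2 probes (symbols) under each processing and with each array left out (rows). ILMN_1708105 lies between -0.83 and -0.52 and ILMN_2364529 between -1.45 and -0.55, while ILMN_1652913 ranges from -1.59 to 0.018, its extremes being those without knockout replicate 1 and without knockout replicate 2.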

How the data were processed

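Total RNA of 2 mH2A1.2 knockout and 2 wild type samples was biotin-labelled and read on Illumina arrays, per the labels. The submitters' processing notes name GenomeStudio. The deposited signal table holds, per the file headers, a linear intensity and a detection p-value for 47230 probes on each array. A second deposited table gives log2 values of 47164 probes, which the authors made by a normalization that the sources used here do not state.

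In 147 consecutive rows the deposited detection p-values contradict the signals. All 588 are at most 0.05, and 396 differ by over 0.05 from the value the signal gives on that array. Each of these rows holds a value off the step set by 770 negative controls that every other row follows. Multiplied by 20, all 588 lie on that step. Why was not tested. For those rows the p-value was read by interpolation from the other probes of the array. No PRC2 probe is among them, but the background estimate rests on these p-values (background SD 10.1 to 11.2, against 47.2 to 83.9 as deposited). Using them as deposited keeps 19752 probes in place of 19650. This repair, and the alternatives with p-values as deposited or with those rows left out, were chosen after seeing the data.

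Signals were background-corrected by normexp (limma 3.58.1, R 4.3.3, offset 16), then log2-transformed and quantile normalized. Kept probes (detection p under 0.05, at least 2 arrays) were fitted by lmFit and eBayes, two-sided, with 2 residual degrees of freedom and Benjamini-Hochberg adjustment over all of them. Probes were named from GEO's platform annotation (30082 probes listed, 30074 with 1 symbol and 8 with several, and 17148 unnamed here), updated by gene number. For lists, the brightest kept probe stood for a gene. Members and lists were chosen with earlier results of these data known. Genes named are every kept member probe, MACROH2A1, up to 4 genes of smallest p in each related list, and the 5 nearest to EZH2 in pattern. In 10 simulated runs with 200 of 19650 probes changed, 0 were called after adjustment on average, while 81.8% of probes changed by a log2 of 1 and 5.90% of unchanged ones reached an unadjusted p under 0.05. The simulated noise was independent between probes and equally wide in both groups. Knockout arrays here were less alike than wild type arrays, so these simulated shares need not hold in the data. The number of arrays limits the precision. All 4 arrays lay on 1 chip.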

Additional observations from a re-analysis of the deposited data

How the results depend on the processing

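The EZH2 difference at its brightest probe stayed negative and past no adjusted threshold under all 17 alternatives, from -0.83 to -0.52, with limma's Benjamini-Hochberg adjusted p between 0.0661 and 0.936. With the detection p-values as deposited it was -0.70, and with the rows whose p-values contradict the signals left out -0.68. The unadjusted level is lost with the mean of the EZH2 probes (limma, unadjusted p = 0.0649). It is also lost without knockout replicate 2 and without either wild type array. Of all kept probes, 375 passed the adjusted threshold with the replicate number as a block, and leaving out 1 array in turn gave 0 to 2069, with 2069 without knockout replicate 1 and 1 without wild type replicate 2. At the unadjusted level there were 5339 probes with no detection filter, and 1159 to 6471 with 1 array left out. For PRC2 probes the adjusted count was 0 to 3 with 1 array left out, the 3 being ILMN_2364529 of EZH2 and ILMN_1745420 and ILMN_1756676 of PHF19 without knockout replicate 1. The unadjusted count of 3 PRC2 probes became 1 with the mean of probes per gene, where 20.1% of all genes were past that level. It became 6 with the replicate block, where 24.4% of all kept probes were. The PRC2 count rose without knockout replicate 1 and fell without either wild type array, as did the count over all kept probes. The PRC2 median ranged from -0.49 to -0.21 with 1 array left out, and was -0.25 with no background correction and -0.23 on the authors' values. Differences turned sign for EZH2 ILMN_1652913 and PHF1 without knockout replicate 2, with leave-one-out ranges of -1.59 to 0.018 and -0.28 to 1.33, and for RBBP4 ILMN_1653514 without knockout replicate 1, with a range of -0.30 to 0.52. The cause of these shifts was not tested. An array left out leaves 1 sample in its group, which is assumed to vary like the other group. The labels do not link replicate numbers across groups, and the deviations of same-numbered arrays correlated at 0.407 (with 2 replicates a group, the other pair only mirrors it). The share of unadjusted calls that were lower in the knockout was 48.7%, and over the alternatives it ran from 39.1% without wild type replicate 2 and 40.1% without wild type replicate 1 to 52.2% without knockout replicate 1. Of the single named probes' other values, 642 kept direction and side of the threshold, 16 passed it and 3 turned sign. Those that passed are, without knockout replicate 1, the 3 PRC2 probes above with PHF1, LIN9, CHAF1A, E2F8, RBL2, TFDP1, BIRC5, TIMP2, VASH1 and CDKN1C, and, with the replicate block, TIMP2, SLIT2 and CDKN1C. Signal over background limits the EZH1 probe and the 2 dimmer RBBP4 probes most.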

Other observations

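In the authors' deposited table of processed log2 values, EZH2 ILMN_1708105 had 8.87 and 8.61 in the knockout, against 9.35 and 9.23 in wild type, and EZH2 ILMN_2364529 had 8.80 and 8.03, against 9.34 and 9.14. JARID2 had 9.65 and 9.47 in the knockout, against 9.16 and 8.81 in wild type, in the authors' deposited table. PHF19 ILMN_1745420 had 9.64 and 8.50 in the knockout, against 9.86 and 9.76 in wild type, while PHF19 ILMN_1713249 had 9.63 and 9.44, against 9.32 and 9.38, in the authors' deposited table.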
